A study of Volvox carteri with 4 samples.

Results

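The VARL genes (volvocine algal *regA*-like) form a small family in *Volvox carteri*, and 10 of its 14 members, *rlsD* to *rlsM*, lie outside the *regA* gene cluster. They were taken by their locus identifiers from a table of 16008 gene models, all 10 were present there, and all 10 passed the filter on low counts that left 13350 genes for testing. RefSeq gives the same symbols to all 14 family members in its annotation of the version 1.0 assembly. Only the names and the order of genes were used from that annotation, because the reads had been mapped to version 2 of the genome. No sequence is shown for these genes.

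All 4 libraries came from the wild-type female strain Eve of *V. carteri* f. *nagariensis*, with no treatment and no engineered allele. Hatched adult spheroids were harvested at hour 42 of a life cycle of 48 hr, which is 6 hr after the second light period began and before gonidia cleave. Gonidia, the large reproductive cells, and somatic cells, the small flagellated cells that do not divide, were separated by density, and each of the 2 gonidial and 2 somatic preparations came from its own set of cultures. A purified population can still hold some cells of the other type, and in such bulk RNA fewer transcripts per cell cannot be told apart from fewer cells that hold the transcript.

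Proteins of the VARL family share a conserved region, the VARL domain, which resembles the DNA-binding SAND domain of other eukaryotes. The best studied member, *regA*, encodes a nuclear protein that is thought to act as a transcriptional repressor and keeps somatic cells from turning into reproductive cells. In *regA* mutants somatic cells form, then enlarge and become gonidia. The unicellular relative *Chlamydomonas reinhardtii* also has VARL genes, among them *RLS1*, whose transcript responds to light and nutrient supply in that species, and *rlsD* is regarded as its closest relative in *V. carteri*. Functions of the other genes described here are not established, so they are ordered below by where their transcripts were more abundant.

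Counts over all gene models summed to between 10838222 and 13104583 per library. Levels are given as normalized counts, that is, reads per 10000000 reads left in a library once the most abundant genes (upper 0.3% of counts) were set aside. A gene with 0 counts may still have had up to 3, which is 3.08 to 3.96 normalized counts, and this limit and all intervals on counts cover counting error only. The check of the cell-type labels rested on 7 somatic and 5 gonidial marker genes. All 7 and all 5 were called in the direction of their name, with summed somatic markers of 487 to 522 normalized counts in gonidia and of 121000 in both somatic libraries. Summed gonidial markers were 117000 and 135000 in gonidia and 14000 and 17500 in somatic replicates 1 and 2. Each somatic marker stood in gonidia at no more than 4.99% of its somatic level, and *regA* had 0 counts in gonidial replicate 2. Gonidial markers stood in the somatic libraries at 3.68% to 19.9% of their gonidial level, and none was at 0. The lowest share, that of *gon167* in somatic replicate 1, rested on 1 count, which is under the limit of 3.

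Among the 10 genes, 5 had more transcript in somatic cells, 2 had more in gonidia and 3 differed by less than 2-fold. The somatic genes were *rlsD*, *rlsF*, *rlsH*, *rlsI* and *rlsJ*, the gonidial ones were *rlsG* and *rlsM*, and the remaining ones were *rlsE*, *rlsK* and *rlsL*. A gene was called when edgeR's quasi-likelihood test gave an adjusted p-value under 0.05 and the difference was at least 2-fold. Over all tested genes 26.0% were called somatic and 46.7% gonidial, 72.7% in either direction, and 25.9% differed by less than 2-fold. Thus 7 of 10 VARL genes were called, a share near the background, and the somatic share of 5 in 10 lay above its background while the gonidial share of 2 in 10 lay below. An adjusted p-value under 0.05 was reached by 9 of the 10, beside 80.9% of all genes. The read support differed widely, from 10.6 normalized counts for *rlsI* in gonidial replicate 2 to 1320 for *rlsE* in somatic replicate 2.

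**Figure D1:**
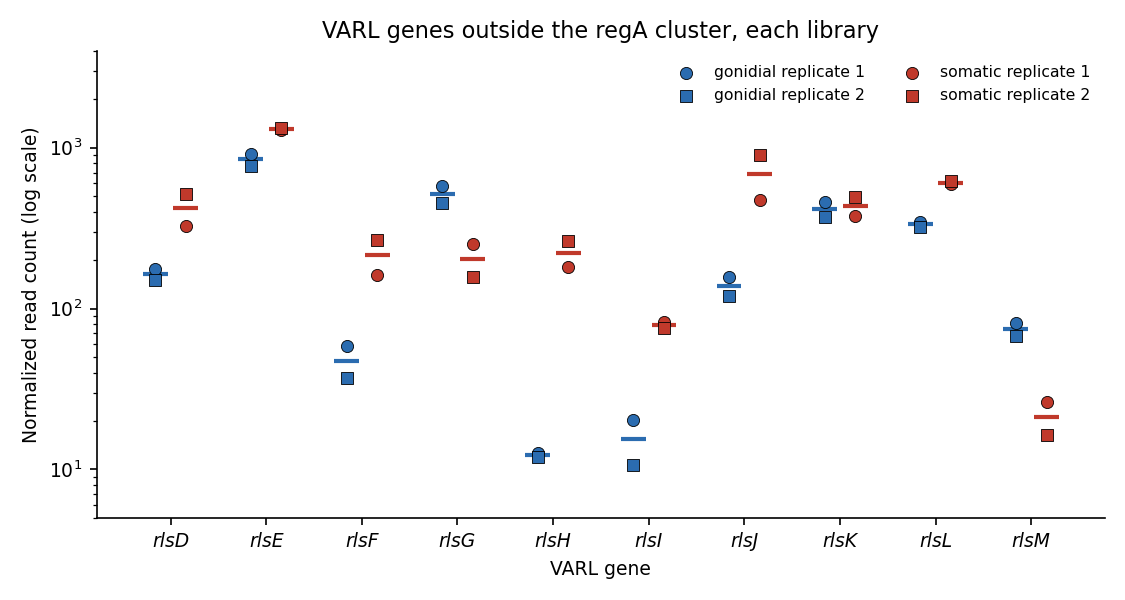
Normalized read count (log scale) of each of the 10 VARL genes in each library, with circles for replicate 1, squares for replicate 2 and bars for the mean of each cell-type (n = 2). Gonidial and somatic points overlap for *rlsK* alone, and *rlsH* shows the widest gap, from about 12 in gonidia to 182 and 261 in somatic cells.

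Of the somatic genes, *rlsH* (Vocar.0022s0042) had the largest difference. It was counted 10 and 9 times in the gonidial libraries and 139 and 255 times in the somatic libraries. These are 12.6 and 11.9 normalized counts in gonidia and 182 and 261 in the somatic preparations, or 12.3 ± 0.545 and 222 ± 56.5 (SD, n = 2 each). Every somatic library was thus at least 14.4-fold above every gonidial library. The log2 fold change, somatic over gonidial throughout, was 4.16 (standard error 0.42, Benjamini-Hochberg adjusted p = 6.09e-09 in edgeR), or 17.9-fold. Few reads lie behind the gonidial level, since 10 counts have an exact 95% Poisson interval of 4.8 to 18.4 and 9 counts one of 4.12 to 17.1. Both counts nevertheless lay above the limit of 3, so that *rlsH* transcript was detected in both gonidial preparations. Its gonidial level was 5.53% of the somatic level. By the same ratio of means, the somatic markers ranged from 0.0594% for *ssgA* to 4.83% for the kinesin-like gene *klpA*. The next highest was *PF16* at 1.75%. A part of somatic cells in the gonidial *rlsH* signal was not tested.

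A second group, *rlsI*, *rlsJ* and *rlsF*, differed by between 4.49-fold and 5.07-fold. For *rlsJ* (Vocar.0024s0052) the normalized counts were 157 and 119 in gonidia and 472 and 906 in somatic cells. The cell-types did not overlap, and the somatic replicates themselves lay 1.92-fold apart. The log2 fold change was 2.32 (standard error 0.30, edgeR adjusted p = 9.67e-07), and single pairs of a somatic and a gonidial library gave from 3.01-fold to 7.64-fold. Of all tested genes, 14.2% differed by more than 2-fold between the somatic replicates and 5.99% between the gonidial replicates, after addition of 1 normalized count. With 1.92-fold between its somatic replicates, *rlsJ* lay just under that 2-fold mark.

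For *rlsF* (Vocar.0008s0105) the normalized counts were 58.2 and 36.9 in gonidia and 162 and 266 in somatic cells, again without overlap. The log2 fold change was 2.17 (standard error 0.34, edgeR adjusted p = 8.08e-06). For *rlsI* (Vocar.0020s0165) they were 20.2 and 10.6 in gonidia and 82.3 and 75.9 in somatic cells. Here the somatic libraries were close together and the gonidial ones, with 16 and 8 counts, lay 1.92-fold apart. Its log2 fold change was 2.34 (standard error 0.43, edgeR adjusted p = 3.15e-05).

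The study's methods divide cell-type genes at 5-fold into biased and specific ones. Applied to the edgeR fit, that rule made *rlsH*, *rlsI* and *rlsJ* somatic-specific and *rlsF* and *rlsD* somatic-biased. In the edgeR fit used here 16.9% and 9.15% of all tested genes fell into these classes. The study reported smaller shares for both, and the reason was not tested. DESeq2, the study's tool, called 3301 somatic and 5908 gonidial genes here, beside 3471 and 6233 in edgeR. When DESeq2 tested against a 2-fold change, it called 2459 and 4077, the nearest to the study's totals among the settings run. That test did not call *rlsD*. The 5-fold line ran between genes whose intervals overlapped widely. The difference was 5.07-fold for *rlsI*, just over 5-fold for *rlsJ* and 4.49-fold for *rlsF*, and the log2 fold changes of *rlsJ* and *rlsF* differed by 0.16 (standard error 0.45, 95% interval -0.79 to 1.10).

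The smallest difference among the somatic genes was that of *rlsD* (Vocar.0026s0121), the relative of *RLS1*. Its normalized counts were 177 and 150 in gonidia and 324 and 517 in somatic cells. No somatic library overlapped a gonidial one, and the somatic replicates lay 1.60-fold apart. The log2 fold change was 1.36 (standard error 0.27, edgeR adjusted p = 0.000165), or 2.57-fold. This call rested on somatic replicate 2. Without that library the log2 fold change fell to 0.98, just under 2-fold, with an adjusted p of 0.00056. Across the 15 alternatives for this gene the adjusted p ranged from 4.77e-10 to 0.447, the highest value coming from a DESeq2 test against a 2-fold change, the edgeR counterpart of which gave 0.0501.

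**Figure D2:**
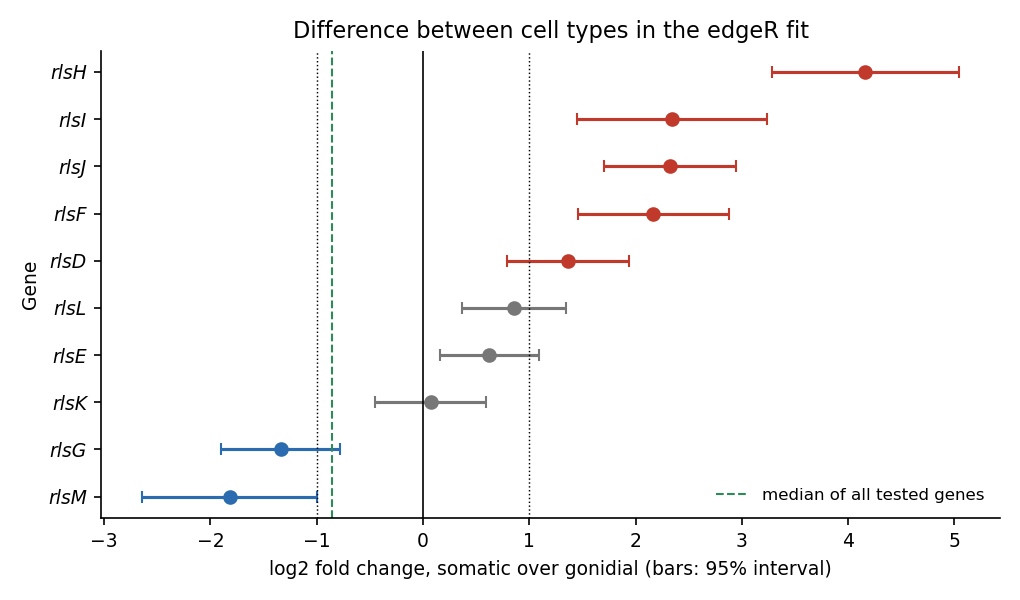
Log2 fold change (somatic over gonidial) of the 10 VARL genes in the edgeR fit, with 95% intervals, in red for genes called somatic, blue for gonidial and grey for neither. Dotted lines mark 2-fold and the dashed line the median of all tested genes at -0.85, and the genes span from -1.82 for *rlsM* to 4.16 for *rlsH*.

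The genes with more transcript in gonidia were *rlsG* and *rlsM*. For *rlsG* (Vocar.0003s0512) the normalized counts were 574 and 452 in gonidia and 250 and 158 in somatic cells. Both gonidial libraries lay above both somatic libraries, by between 1.81-fold and 3.64-fold. The log2 fold change was -1.34 (standard error 0.27, edgeR adjusted p = 0.000162). For *rlsM* (Vocar.0025s0071) the normalized counts were 80.9 and 67.3 in gonidia and 26.1 and 16.4 in somatic cells, from 64, 51, 20 and 16 counts. The groups did not overlap, and the log2 fold change was -1.82 (standard error 0.39, edgeR adjusted p = 0.000259). Both genes were gonidial-biased in the edgeR fit, a class that held 17.6% of all tested genes there and a smaller share in the study. DESeq2's test against a 2-fold change, with totals nearest to the study's among the settings run, called neither gene.

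In somatic cells *rlsG* and *rlsM* stood at 39.7% and 28.7% of their gonidial level. These shares were above those of all 5 gonidial markers. By the same ratio of means the highest marker was the superoxide dismutase gene *fsd1* at 18.3%, and in a single library it reached 19.9%. Tests against a 2-fold change, in place of no change, were stricter. Of these, edgeR's gave an adjusted p of 0.056 for *rlsG* and DESeq2's gave 0.473 for *rlsG* and 0.235 for *rlsM*. The call for *rlsM* held in 14 of 15 alternatives, with log2 fold changes from -2.17 to -1.11 and adjusted p-values from 4.47e-06 to 0.235, and that for *rlsG* in 11 of 15, with -1.70 to -0.61 and 1.94e-09 to 0.473.

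The other 3 genes differed by less than 2-fold in their estimates. Of these, *rlsL* and *rlsE* had an adjusted p-value under 0.05 and *rlsK* did not. For *rlsL* (Vocar.0001s1384) the normalized counts were 346 and 322 in gonidia and 594 and 616 in somatic cells. The replicates of each cell-type agreed within 1.08-fold and the cell-types did not overlap. The log2 fold change was 0.86 (standard error 0.24, 95% interval 0.36 to 1.35, edgeR adjusted p = 0.00263). For *rlsE* (Vocar.0003s0509), the most counted of the 10 genes, they were 917 and 772 in gonidia and 1280 and 1320 in somatic cells. Its log2 fold change was 0.62 (standard error 0.22, 95% interval 0.16 to 1.09, edgeR adjusted p = 0.0154). Both estimates were under the 2-fold that a call required, and both intervals reached past it. For *rlsE* the edgeR adjusted p rose to 0.0523 without gonidial replicate 1 and to 0.197 without gonidial replicate 2, each fit then holding a lone gonidial library that is assumed to vary like the others. For *rlsL* it was at most 0.0492 with any 1 library left out. Over all 15 alternatives the adjusted p ranged from 1.41e-05 to 1 for *rlsE* and from 2.84e-06 to 1 for *rlsL*, the value of 1 coming from DESeq2's test against a 2-fold change.

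For *rlsK* (Vocar.0024s0053) the normalized counts were 459 and 371 in gonidia and 376 and 494 in somatic cells, and it was the single member whose libraries overlapped. Its log2 fold change was 0.07 (standard error 0.25, 95% interval -0.45 to 0.59, edgeR adjusted p = 0.798). The interval allows a difference of less than 2-fold in either direction and does not show the levels to be equal. Without gonidial replicate 2 or somatic replicate 2 the sign turned, to -0.08 and -0.14. Over all 15 alternatives the log2 fold change ran from -0.14 to 0.79. The highest value came with the size factors of DESeq2, where the edgeR adjusted p was 0.00353. Gonidial and somatic libraries were fully separated for 9 of 10 VARL genes, beside 90.6% of all tested genes.

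Ordered by log2 fold change, the genes ran *rlsH*, *rlsI*, *rlsJ*, *rlsF*, *rlsD*, *rlsL*, *rlsE*, *rlsK*, *rlsG* and *rlsM*. The 95% interval of the difference between neighbours in this order excluded 0 at 2 of 9 places. The first was between *rlsH* and *rlsI*, with a difference of 1.82 (95% interval 0.57 to 3.08), and the second between *rlsK* and *rlsG*, with 1.41 (95% interval 0.64 to 2.17). At the other 7 places the interval included 0, the widest of these differences being 0.81 between *rlsF* and *rlsD*. Standard errors of the single genes were combined as independent for these intervals.

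The median log2 fold change of the 10 genes was 1.11, whereas that of all 13350 tested genes was -0.85. Above 0 were 8 of the 10 genes and 37.8% of all tested genes, and the same 8 genes were above the median gene. The percentile of each gene in the ranking of all log2 fold changes is a place that does not rest on where 0 is set. It was 90.7 for *rlsH*, 83.3 for *rlsI*, 83.2 for *rlsJ*, 82.1 for *rlsF* and 76.6 for *rlsD*. It was 72.2 for *rlsL*, 69.9 for *rlsE* and 63.2 for *rlsK*. The gonidial genes *rlsG* and *rlsM* stood at 42.6 and 35.9, so that *rlsG*, though called gonidial, stood at -0.49 relative to the median gene on the log2 scale. The percentiles thus ran from 35.9 to 90.7, and the gonidial end of the ranking held no VARL gene.

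**Figure D3:**
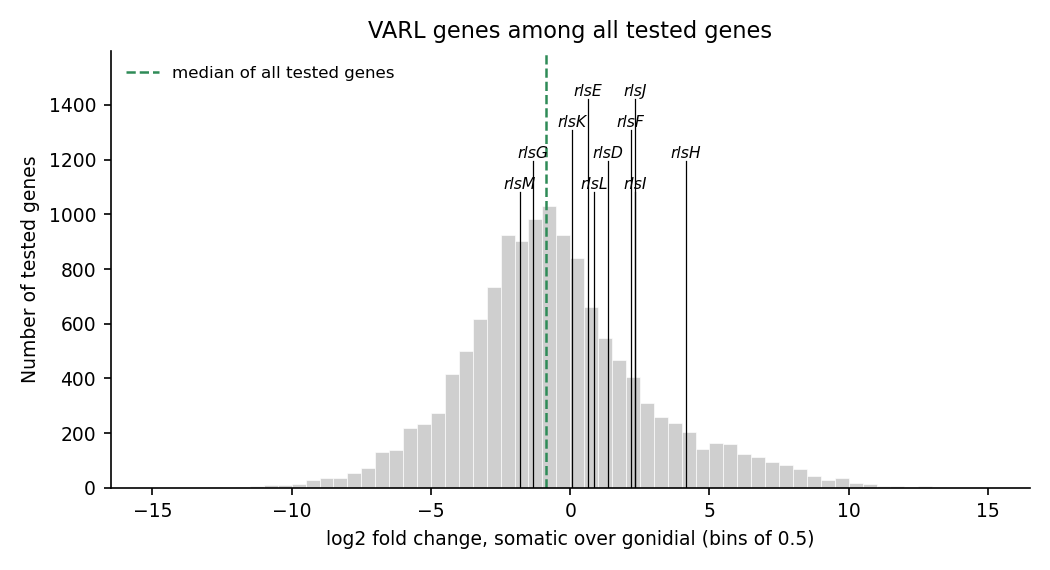
Number of tested genes in each 0.5 bin of the log2 fold change (somatic over gonidial), with a line for each VARL gene and a dashed line for the median of all tested genes. To the right of the median at -0.85 lie 8 of the 10 VARL genes, and *rlsG* and *rlsM* lie to its left.

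Calls near 2-fold depended on how the libraries were scaled, since most genes differed between the cell-types and the data hold no RNA standard. Relative to the scaling of the study's methods, the median log2 fold change of all genes was higher by 0.59 under TMM scaling in edgeR and by 0.71 under the size factors of DESeq2. The gonidial share of all calls fell from 64.2% to 54.1% and 51.9%. With both scalings *rlsE* (1.23 and 1.34) and *rlsL* (1.46 and 1.57) became somatic and *rlsG* (-0.72 and -0.61) fell short of 2-fold. There were then 7 somatic VARL genes and 1 gonidial gene, *rlsM*, beside somatic backgrounds of 32.2% and 33.6% and gonidial backgrounds of 38.0% and 36.2%. With plain totals of counts the calls were 5 and 2. The calls of *rlsD*, *rlsF*, *rlsH*, *rlsI* and *rlsJ* as somatic and of *rlsM* as gonidial held with all 4 scalings, and no VARL gene changed its sign among them.

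**Figure D4:**
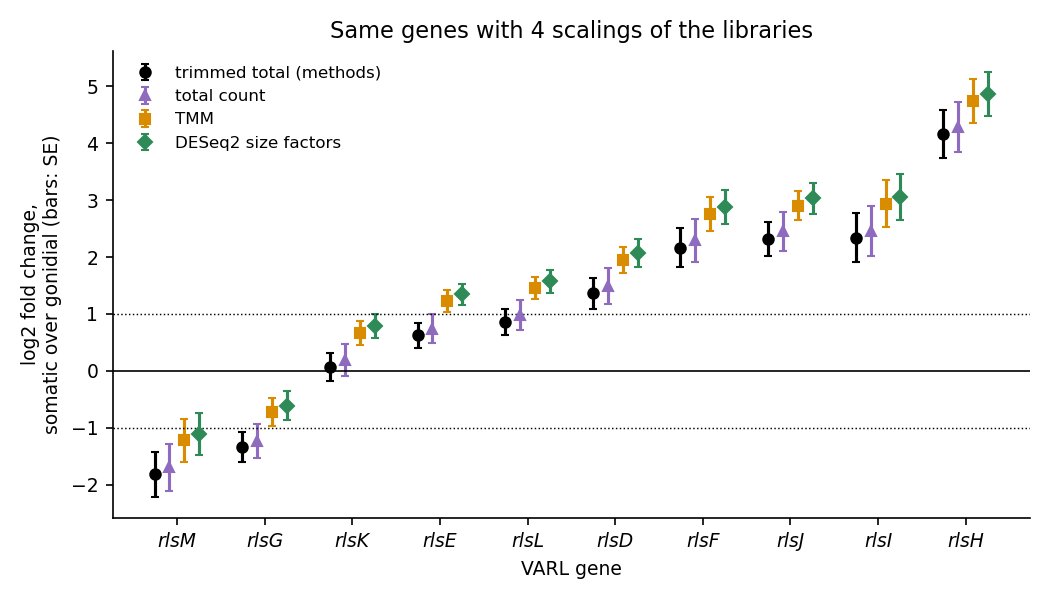
Log2 fold change (somatic over gonidial) of each VARL gene with 4 scalings of the libraries, with bars for the standard error and dotted lines at 2-fold. Under TMM scaling and the size factors of DESeq2 all genes move up together, which takes *rlsE* and *rlsL* past 2-fold and *rlsG* inside it.

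The genes *rlsJ* and *rlsK* have consecutive locus numbers on the same scaffold, Vocar.0024s0052 and Vocar.0024s0053, and RefSeq also lists no gene between them. The ratio of their counts within a library, which needs no scaling, was compared between cell-types. On the log2 scale *rlsJ* over *rlsK* was -1.55 and -1.64 in gonidia and 0.33 and 0.87 in somatic cells. Fewer reads thus fell on *rlsJ* than on *rlsK* in both gonidial libraries and more in both somatic libraries. The mean shift was 2.19 or 4.57-fold, and the SD was 0.06 between gonidial and 0.39 between somatic replicates. A two-sided exact permutation test gave p = 0.33, the smallest value that 2 libraries against 2 allow. The fitted log2 fold changes of the neighbours differed by 2.25 (standard error 0.39, 95% interval 1.44 to 3.06). For this interval the standard errors of the 2 genes were combined as independent, although both genes were counted in the same libraries. In this pair *rlsJ* was the gene called, and with the scaling of the study's methods the interval of *rlsK* included 0. Under TMM scaling and the size factors of DESeq2 the log2 fold change of *rlsK* was 0.67 and 0.79. The edgeR adjusted p was then 0.007 and 0.00353, still without a 2-fold difference.

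The genes *rlsE* and *rlsG* lie on another scaffold, with 2 gene models numbered between them, as also in RefSeq. Their log2 count ratio, *rlsE* over *rlsG*, was 0.67 and 0.77 in gonidia and 2.36 and 3.06 in somatic cells. Reads on *rlsE* outnumbered those on *rlsG* in all 4 libraries, and by more in both somatic libraries. The shift was 1.99 or 3.97-fold, again with the smallest possible exact permutation p of 0.33. The fitted log2 fold changes differed by 1.96 (standard error 0.35, 95% interval 1.23 to 2.69), with standard errors again combined as independent. With all 4 scalings the log2 fold change was above 0 for *rlsE* and below 0 for *rlsG*.

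**Figure D5:**
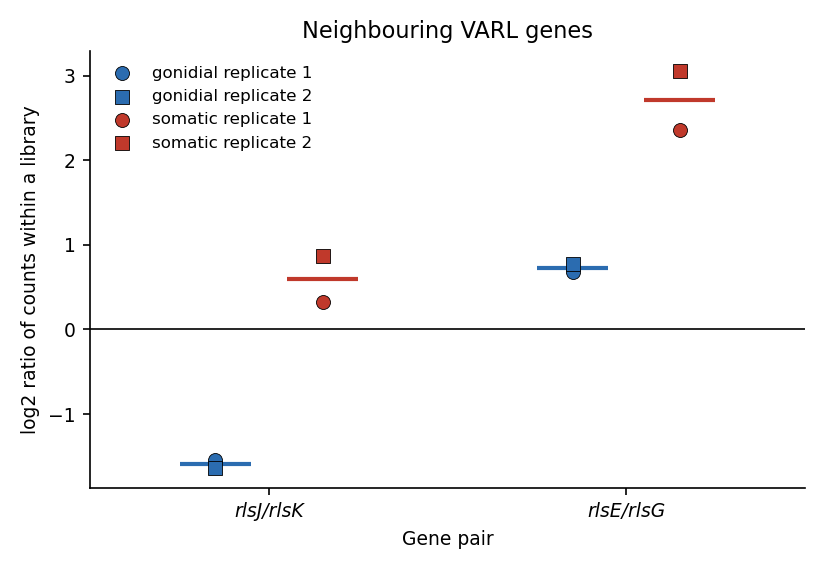
Log2 ratio of read counts within each library for *rlsJ* over *rlsK* and *rlsE* over *rlsG*, with circles for replicate 1, squares for replicate 2 and bars for the mean of each cell-type. For *rlsJ* over *rlsK* the ratio is below 0 in both gonidial libraries and above 0 in both somatic libraries, and both pairs rise by about 2 on the log2 scale.

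Differences of this size between neighbours were common in these data. Among 11452 pairs of tested genes with consecutive locus numbers, the median absolute difference in log2 fold change was 2.41, and 52.2% of pairs were at least as far apart as *rlsJ* and *rlsK*. Among 11108 pairs spaced like *rlsE* and *rlsG*, the median was 2.90 and 64.6% were at least as far apart. The flanking gene models, given here by locus alone because the RefSeq neighbours were not matched to them, also varied. Beside *rlsJ*, Vocar.0024s0051 was counted 0 and 2 times in gonidia and 243 and 318 times in somatic cells, a ratio of 250 with an exact 95% counting interval of 68.8 to 2070. On the other side of *rlsK*, Vocar.0024s0054 had a log2 fold change of -0.32 (standard error 0.25, edgeR adjusted p = 0.243).

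Between *rlsE* and *rlsG*, Vocar.0003s0510 had normalized counts of 291 and 306 in gonidia and 7470 and 4990 in somatic cells, a log2 fold change of 4.38 (standard error 0.23, edgeR adjusted p = 1.25e-11). The other intervening model, Vocar.0003s0511, had a log2 fold change of -0.68 (edgeR adjusted p = 0.0278). Outside the pair, Vocar.0003s0508 stood at -0.05 (edgeR adjusted p = 0.857) and Vocar.0003s0513 at 0.81 (edgeR adjusted p = 0.0174). Models called somatic thus lay next to models that differed by less than 2-fold on both scaffolds. The preparation of the libraries as described does not mark the strand, so that reads of overlapping gene models on opposite strands cannot be told apart.

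The reads of all 10 genes together came to 2800 and 2310 normalized counts in gonidia and 3750 and 4630 in somatic cells. Within gonidia all 10 genes had the higher normalized count in replicate 1, as did 67.2% of all tested genes. Within somatic cells 7 of 10 had the higher value in replicate 2, beside 61.1% of all tested genes. The 3 exceptions were *rlsG*, *rlsI* and *rlsM*. The replicates were closest for *rlsL* and *rlsE*, whose somatic libraries lay 1.04-fold and 1.03-fold apart, and farthest for *rlsJ* in somatic cells and *rlsI* in gonidia, both at 1.92-fold.

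Levels of different genes can be compared only per length of the gene model, and no length is given with the counts. With the lengths implied by the study's own RPKM values, used here for the order alone, *rlsE* had the highest level in both cell-types. In gonidia it was followed by *rlsG*, *rlsL*, *rlsK*, *rlsD*, *rlsJ*, *rlsF*, *rlsM*, *rlsH* and *rlsI*. In somatic cells the order after *rlsE* was *rlsH*, *rlsL*, *rlsJ*, *rlsF*, *rlsD*, *rlsK*, *rlsG*, *rlsI* and *rlsM*. Thus *rlsH* was next to last in gonidia and next to first in somatic cells, and *rlsG* went from the second place to the eighth. Neighbours overlapped in their replicates at 4 of 9 places in gonidia, namely *rlsE* with *rlsG*, *rlsL* with *rlsK*, *rlsJ* with *rlsF* and *rlsF* with *rlsM*. In somatic cells they overlapped at 6 of 9 places, namely *rlsE* with *rlsH* and throughout the run from *rlsL* to *rlsG*. The steps from *rlsH* to *rlsL* and on both sides of *rlsI* were clear of the replicate spread there.

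The 4 genes of the *regA* cluster had 0 or 1 count in each gonidial library. In gonidial replicates 1 and 2, *regA* (Vocar.0021s0042) had 1 and 0 counts, *rlsA* 0 and 1, *rlsB* 1 and 1 and *rlsC* 1 and 0. In the somatic libraries the counts were 486 and 786 for *regA*, 12 and 13 for *rlsA*, 21 and 36 for *rlsB* and 0 and 0 for *rlsC*, which did not pass the filter. The other 3 were called somatic. Ratios of the summed counts, scaled by library size, were 1130 for *regA*, with a single gonidial read behind it, 22.2 for *rlsA* (exact 95% counting interval 3.64 to 913) and 25.4 for *rlsB* (6.71 to 214). By contrast, each of the 10 genes outside the cluster had at least 8 counts in every library. The 17.9-fold difference of *rlsH* lay within the counting intervals of both *rlsA* and *rlsB*.

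Among 603 tested genes to which the study's lists give a name, the one with the profile most like that of each called VARL gene was identified by the Euclidean distance between log2(normalized count + 1) values, centred on their mean over the 4 libraries. With 4 libraries of 2 cell-types such likeness is mostly likeness in fold change. For *rlsF* and *rlsJ* the nearest named gene was the respective other (distance 0.264). For *rlsH* it was the locus of *vmp34* and *vmp36*, which bear the name of the *Volvox* metalloproteinases of the extracellular matrix (0.15), with 13 and 13 counts in gonidia and 196 and 322 in somatic cells. For *rlsI* it was *ATG1* (0.3), whose yeast counterpart encodes a kinase that starts autophagy, and for *rlsD* it was *RGP2* (0.242), annotated as a UDP-arabinopyranose mutase. For *rlsG* it was *nab1* (0.247), a nucleic acid binding protein, and for *rlsM* it was *PBGD2* (0.241), which encodes porphobilinogen deaminase of tetrapyrrole biosynthesis.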

How the data were processed

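RNA-seq counts were available for 2 gonidial and 2 somatic libraries (poly(A) RNA, 50-base single-end reads). The deposited counts are whole reads per gene model, which the authors obtained with Trimmomatic (trimming), STAR (alignment, genome version 2) and HTSeq (assignment of reads that mapped once), without normalization or pooling. Reads shared equally by paralogs are therefore absent. Versions of these tools are not given in the sources used here.

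Genes without counts (14834 of 16008 had any) and the bottom 10% by mean normalized count were removed. Library sizes were totals without the upper 0.3% of counts, as in the study's methods. The test was edgeR's quasi-likelihood test with cell-type as the only term and Benjamini-Hochberg adjustment over 13350 genes, in R 4.3.3 with edgeR 4.0.16 and DESeq2 1.42.0. With 2 libraries per cell-type the adjusted p-values rest on variance shared across genes (common dispersion 0.0316, 17.1 prior degrees of freedom, median standard error 0.33). Depths were 10838222 to 13104583 counts, and counting error adds to replicate spread most in genes with few counts, such as *rlsH* and *rlsI* in gonidia. For a ratio within a library, 0.5 was added to each count. Single-value tests were two-sided and exact.

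The members, gene lists and comparisons were chosen with earlier results of these data known. All 10 VARL genes, the *regA* cluster, the marker genes, the gene models beside the neighbouring pairs and the nearest named gene of each called member are named. Alternatives were 3 scalings, DESeq2, tests against a 2-fold change, 3 filters, a prior count of 2, the replicate number as a term and each library left out. On simulated counts for this comparison (13178 genes), edgeR recovered 95 of 100 genes changed by 1.5 and 100 of 100 changed by 2.5 on the log2 scale, with 3 false calls among 12978. In this simulation few genes changed, equally in both directions, and all genes had the same dispersion. In the data 72.7% of genes were called, more of them gonidial, so these rates do not carry over to the calls made here. Protein identity within the family was not analysed here.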

Additional observations from a re-analysis of the deposited data

How the results depend on the processing

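Of 190 values for single genes of the family under alternatives, 175 kept their direction and their side of the call, 9 lost it, 4 gained it and 2 turned in sign. The sign turned for *rlsK* without gonidial replicate 2 (-0.08) and without somatic replicate 2 (-0.14), within a range of -0.14 to 0.25 when 1 library was left out. The number of somatic VARL genes was 5, and without 1 library in turn it ranged from 4 to 5. It was 3 with at least 10 counts required in every library, which removes *rlsH* and *rlsI* from the test and also leaves 0 in place of 3 somatic genes of the *regA* cluster. The number of gonidial VARL genes was 2 and was 1 under TMM scaling, 1 under the size factors of DESeq2, 1 when edgeR tested against a 2-fold change and 0 when DESeq2 did. At an unadjusted p under 0.05 these tests gave 2 and 0. Over all genes, the tests of edgeR and DESeq2 against 2-fold called 5440 and 4077 gonidial and 3023 and 2459 somatic genes, against 6233 and 3471. The requirement of 10 counts left 3479 gonidial and 2271 somatic genes among 8826.

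The shift between *rlsJ* and *rlsK* lay between 1.92 and 2.47 and that between *rlsE* and *rlsG* between 1.64 and 2.34 without 1 library in turn. Each gonidial culture was separate from each somatic culture, and the deviations of same-numbered libraries had a correlation of -0.04 over genes. With the replicate number as a block, 5 somatic and 2 gonidial VARL genes were called, with no VARL gene changing its call, and 3449 and 6215 genes over all. An order of levels was obtained with the implied lengths alone. Depth limits *rlsH*, *rlsI* and *rlsM*, each with 20 counts or fewer in both libraries of a cell-type.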
